A study of Homo sapiens with 6 samples.

Results

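Phospholipase C beta and gamma enzymes and the RASGRP exchange factors form a signalling chain around the lipid diacylglycerol, and the RNA of its 10 genes (PLCB1 to PLCB4, PLCG1, PLCG2 and RASGRP1 to RASGRP4) was examined in a pair of human esophageal squamous cell carcinoma (ESCC) cell lines. The genes were taken from the 58884 listed in the table by their symbols, and each symbol occurred once. The family was chosen by the log2 fold changes of some of its genes between the same 6 libraries, with the near-complete switches of RASGRP3 and PLCB4 in view, so the differences of the 10 genes are given as a description with no test. RNA of untreated cells was sequenced from KYSE70, an established line whose NFE2L2 gene, which encodes the transcription factor NRF2, is mutant, and from NRF2null-KYSE70, made from it with CRISPR-Cas9 and a guide to NFE2L2. Both lines were grown in the same serum-containing medium, and each was represented by 3 libraries. NRF2null-KYSE70 was grown from a single clone, so a difference between the lines was a difference between this clone and its parent, and the effect of NRF2 loss cannot be told apart from other features of the clone. The paper reports a faint, smaller NRF2 protein in NRF2null-KYSE70, so the loss of NRF2 in this line was incomplete.

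Phospholipases C cleave a phosphoinositide of the plasma membrane into inositol trisphosphate, which releases calcium from internal stores, and diacylglycerol, which stays in the membrane. The beta enzymes are switched on by G-protein-coupled receptors through Gq alpha subunits and beta-gamma subunits, and the gamma enzymes by receptor and non-receptor tyrosine kinases. Diacylglycerol recruits proteins with a C1 domain, among them protein kinases C and the RASGRP proteins, which load RAS and RAP GTPases with GTP and so feed the ERK cascade. RASGRP proteins and PLCG2 are best known from blood cells, whereas PLCB3 and PLCG1 are expressed widely, epithelia included.

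Between 52072801 and 63975313 reads fell on genes in each library. Libraries of 1 line always differed beyond sampling noise (chi-square per degree of freedom from 4.59 to 23.4), and none was treated as a repeat of another. The labels call the libraries replicates but do not say that they came from separate cultures, so p-values measure the spread between these libraries, which may be technical. The targeted gene, NFE2L2, was lower in each NRF2null-KYSE70 library and stood at 61.4% of the level in the parent (log2 fold change -0.71, SE 0.0495, limma adjusted p = 9.37e-08). All 10 squamous markers had reads in both lines, led by KRT5 with at least 121672 normalized counts, which are read counts divided by 1 size factor per library. At a limma adjusted p below 0.05, 7 of them were higher in the clone and 3 lower, where 29.3% and 28.3% of the 15994 genes tested were. The lower ones, TP63, KRT5 and DSG3, stood at 52.7%, 59.4% and 60% of the parent. KRT14 had the widest rise, to 3.37 times the parental level. Of 10 blood cell markers, 5 had no read in any library, among them SPI1 and GATA1. The summed level of the 10 blood markers was 11.8 to 30.6 in KYSE70 and 42.2 to 63.9 in NRF2null-KYSE70, where PTPRC made up most of it with 42.6, 40.2 and 47.9 normalized counts. CD79A, a B-cell marker, went the other way, with 9, 8 and 17 reads in the parent and 1, 0 and 0 in the clone, and was too low to be tested. Of 6 endothelial markers, 5 were at 3 reads or fewer in every library, and the other, VWF, rose from 142 ± 8.46 in the parent to 353 ± 88.8 normalized counts in the clone (SD, n = 3 each, limma adjusted p = 4.42e-05). The summed level of 6 fibroblast markers was 1384 to 1618 in KYSE70 and 485 to 638 in NRF2null-KYSE70, with COL1A2 and DCN at 0 in all libraries. COL1A1 and COL3A1 were lower in the clone (limma adjusted p = 1.31e-06 and 2.63e-08), whereas PDGFRB had no read in the parent and 12, 15 and 14 reads in the clone.

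The 10 genes showed large switches in RNA level beside small differences. RASGRP3 was nearly silent in KYSE70 and abundant in NRF2null-KYSE70, PLCB1 and PLCB4 were expressed in KYSE70 and nearly silent in NRF2null-KYSE70, and the other expressed members differed by less than 1 on the log2 scale. In all, 8 of the 10 had a mean of at least 10 normalized counts and entered the test across genes, and RASGRP2 and RASGRP4 did not. Of the 8, 1 was higher and 2 were lower past the threshold (limma adjusted p below 0.05, with a log2 fold change of 1 or more in either direction). Of all 15994 tested genes 14.7% passed, 7.23% higher and 7.43% lower. Because the genes were chosen with these values known, nothing is read from those counts. The median log2 fold change of the 8 was 0.01, beside -0.01 for all tested genes. The range and the switches are shown in the plot of the 10 genes by library.

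**Figure D1:**
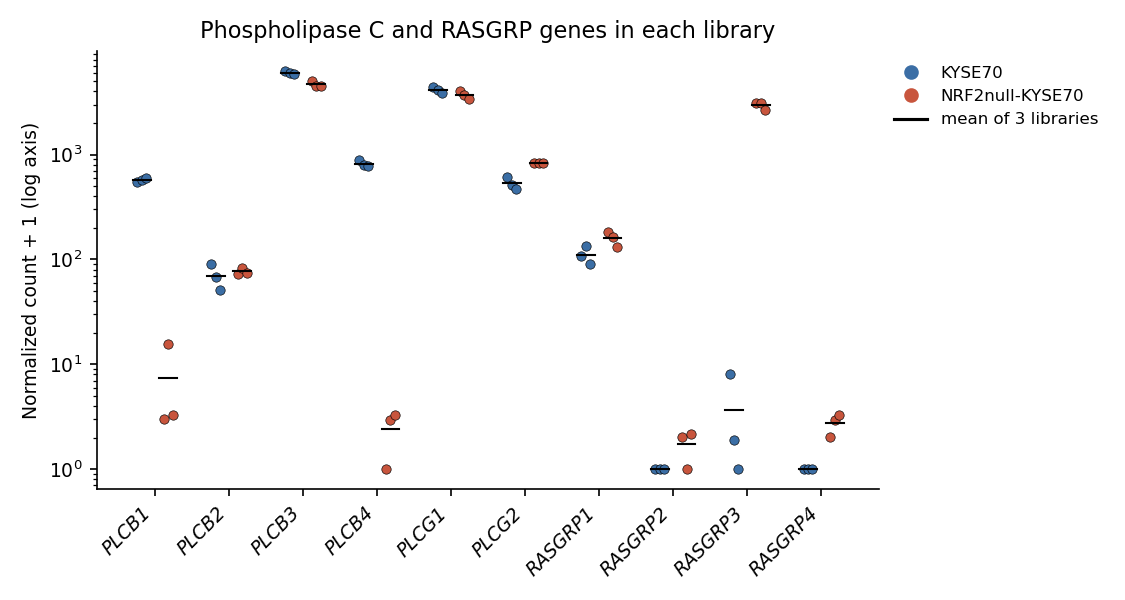
Normalized count plus 1 on a log axis (y) for the 10 phospholipase C and RASGRP genes (x) in the 3 KYSE70 and 3 NRF2null-KYSE70 libraries. Points are libraries and bars are means of 3. PLCB1 and PLCB4 fall to almost no reads in NRF2null-KYSE70, RASGRP3 goes the other way, and RASGRP2 and RASGRP4 lie at the bottom in both lines.

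Sequence before the annotated starts of RASGRP3 is shown because this gene had the widest rise of the family, together with that of PLCB3, the member with the highest level per length in both lines. RASGRP3 has 4 start windows in RefSeq (GRCh38.p14), and gene-level counts cannot show which start was used. Each sequence is the 250 bases before a start on the plus strand, 5′ to 3′, and capitals mark CpG dinucleotides.
RASGRP3 start 1, chr2:33436098-33436347 (+): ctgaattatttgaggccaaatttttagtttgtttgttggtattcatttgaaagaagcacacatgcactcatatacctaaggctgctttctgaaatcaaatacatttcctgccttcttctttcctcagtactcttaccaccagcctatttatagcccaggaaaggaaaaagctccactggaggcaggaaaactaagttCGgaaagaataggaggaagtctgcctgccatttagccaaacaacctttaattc
RASGRP3 start 2, chr2:33457805-33458054 (+): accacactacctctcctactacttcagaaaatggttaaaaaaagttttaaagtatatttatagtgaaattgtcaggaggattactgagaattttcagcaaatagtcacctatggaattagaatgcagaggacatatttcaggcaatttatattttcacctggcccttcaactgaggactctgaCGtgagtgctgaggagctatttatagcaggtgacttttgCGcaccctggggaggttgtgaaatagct
RASGRP3 start 3, chr2:33476399-33476648 (+): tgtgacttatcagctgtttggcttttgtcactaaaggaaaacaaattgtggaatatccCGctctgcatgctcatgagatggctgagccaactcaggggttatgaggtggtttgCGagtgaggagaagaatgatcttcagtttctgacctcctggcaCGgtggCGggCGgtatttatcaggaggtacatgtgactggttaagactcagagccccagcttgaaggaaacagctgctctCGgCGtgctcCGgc
RASGRP3 start 4, chr2:33513625-33513874 (+): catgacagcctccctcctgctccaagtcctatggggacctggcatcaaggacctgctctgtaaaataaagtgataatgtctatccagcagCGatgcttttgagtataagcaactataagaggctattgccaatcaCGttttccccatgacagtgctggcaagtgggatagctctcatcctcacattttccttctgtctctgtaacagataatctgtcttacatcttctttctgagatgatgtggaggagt
PLCB3, chr11:64251280-64251529 (+): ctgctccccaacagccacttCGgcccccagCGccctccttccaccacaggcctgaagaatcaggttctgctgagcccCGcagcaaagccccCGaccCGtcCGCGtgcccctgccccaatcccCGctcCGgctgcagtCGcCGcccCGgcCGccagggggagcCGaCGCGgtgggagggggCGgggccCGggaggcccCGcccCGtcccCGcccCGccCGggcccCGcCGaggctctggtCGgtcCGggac

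The 4 RASGRP3 windows held 1, 2, 8 and 2 CpG dinucleotides and the PLCB3 window held 27, where the median of 35116 RefSeq windows of the same length was 11. Windows were found for 7 of the 10 genes, and PLCB1, PLCB2 and PLCB4 were not among them. RASGRP1 had 28 CpG dinucleotides, PLCG1 had 41, RASGRP2 had 13, RASGRP4 had 9 and PLCG2 had 4. The PLCG2 window lies before the GENCODE start of that gene, since RefSeq begins it farther upstream. A core of the antioxidant response element, the DNA motif that NRF2 binds with a small MAF partner, was searched as TGACNNNGC on both strands. It occurred once in the 10 windows, as TGACAGTGC, beginning 104 bases before RASGRP3 start 4. This motif was present in 10.9% of all windows. The AP-1 motif TGANTCA, whose letters can overlap those of the first motif, occurred in none of the 10 windows and in 6.57% of all windows. A match describes letters only and does not show binding.

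PLCB4 encodes a Gq-activated beta enzyme best known from retina and cerebellum. The gene (ENSG00000101333, chromosome 20, 9067825 to 9504593, hg38, plus strand) had 886, 787 and 778 normalized counts in the KYSE70 libraries. In the NRF2null-KYSE70 libraries it had 0, 2 and 2 reads, at or under the floor of 3 reads in each. PLCB4 was therefore at least 261-fold lower in NRF2null-KYSE70 by a bound set at 3 reads per library. This bound is not a confidence limit and leaves out spread between cultures. The libraries of the lines were far apart, with a span from 778 to 886 in one line and almost no reads in the other.

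PLCB1, the paralog next to it (ENSG00000182621, chromosome 20, 8077251 to 8968360, plus strand), encodes a beta enzyme found in brain and, in part, in nuclei. It had 549, 565 and 597 normalized counts in the parent, against 2, 15 and 2 reads in NRF2null-KYSE70. The second NRF2null-KYSE70 library thus carried most of the remaining 19 reads. The parental level was 89.9 times that of the clone, with a 95% counting interval of 57.6 to 149. This interval covers counting error of the 19 reads only and leaves out their uneven spread over the libraries of the clone. The log2 fold change of -6.73 (SE 0.502) became -7.50 without the second NRF2null-KYSE70 library. Both neighbours were thus close to silent in the clone.

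PLCB3, a widely expressed beta enzyme (ENSG00000149782, chromosome 11, 64251530 to 64269150, plus strand), had 6305, 5981 and 5833 normalized counts in KYSE70 and 5019, 4472 and 4500.2 in NRF2null-KYSE70. All 3 libraries of the clone were lower than those of the parent, and the level was 77.2% of the parental one (log2 fold change -0.37, SE 0.0574). PLCB2, the beta enzyme of blood cells and taste cells (ENSG00000137841, chromosome 15, 40278176 to 40307935, minus strand), had 89.8, 67.1 and 49.6 normalized counts in KYSE70 and 72, 82.4 and 73.1 in NRF2null-KYSE70. The PLCB2 libraries of the lines overlapped, and the difference was smaller than the spread within KYSE70 (log2 fold change 0.18, SE 0.257). PLCB2 had between 47 and 101 reads in each library.

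The gamma enzymes differed less than the switched genes. PLCG1, which acts downstream of growth factor receptors (ENSG00000124181, chromosome 20, 41136960 to 41196801, plus strand), had 4393, 4165 and 3823 normalized counts in KYSE70 and 4051, 3662 and 3395 in NRF2null-KYSE70, and the libraries of the lines overlapped (log2 fold change -0.16, SE 0.0713). PLCG1 overlaps ZHX3 on the other strand, and reads of such a pair could be shared if strand was not used in counting. PLCG2, the gamma enzyme of B cells and myeloid cells (ENSG00000197943, chromosome 16, 81779279 to 81962685, plus strand), had 614, 507 and 470.3 normalized counts in KYSE70 and 824, 826 and 832 in NRF2null-KYSE70. All 3 NRF2null-KYSE70 libraries were above the KYSE70 libraries, by 1.56 times on the means (log2 fold change 0.65, SE 0.104). Across the 8 tested members, the libraries did not overlap for 2 that were higher and 3 that were lower, 5 of 8 in all. Over all tested genes 63.4% had no overlap, 32.1% higher and 31.3% lower.

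RASGRP3, an exchange factor for RAS and RAP known from B cells and endothelium (ENSG00000152689, chromosome 2, 33436324 to 33564750, plus strand), had 8, 1 and 0 reads in the KYSE70 libraries. In NRF2null-KYSE70 it had 3108, 3116 and 2678 normalized counts, a narrow span. The ratio of the means was 1109.8, with a 95% Poisson interval of 585 to 2427 from the 9 parental reads, which covers counting error only. The log2 fold change of 10.21 (SE 0.547) became 11.07 without KYSE70 library 1, which held 8 of those reads, and 9.56 without KYSE70 library 3. RASGRP3 overlaps FAM98A on the other strand. FAM98A had 4736 normalized counts in KYSE70, where RASGRP3 had almost no reads, and 4379.9 in NRF2null-KYSE70 (limma adjusted p = 0.101). In bulk RNA, a change in the number of cells that express the gene and a change in its RNA per cell cannot be told apart. PTPRC, a blood cell marker, and VWF, an endothelial marker, were also higher in NRF2null-KYSE70, as given above, while CD79A was lower, MS4A1 and SPI1 had no reads and PECAM1 and CDH5 at most 1 in a library.

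RASGRP1, the main member in T cells (ENSG00000172575, chromosome 15, 38488103 to 38565575, minus strand), had 108, 133 and 88.6 normalized counts in KYSE70 and 183, 163 and 129 in NRF2null-KYSE70. The highest KYSE70 library was above the lowest NRF2null-KYSE70 library, so the lines overlapped (log2 fold change 0.53, SE 0.207). RASGRP2, the RAP1 activator of platelets (ENSG00000068831, chromosome 11, 64726911 to 64745456, minus strand), had no read in the parent, against 1, 0 and 1 reads in NRF2null-KYSE70. RASGRP4, best known from mast cells (ENSG00000171777, chromosome 19, 38409051 to 38426305, minus strand), had no read in the parent, against 1, 2 and 2 reads in NRF2null-KYSE70. Both were at or under 3 reads in every library, so no fold change is given for them.

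To compare levels between genes, normalized counts were divided by the length of all annotated exons in kilobases. This length joins the exons of all annotated transcripts, and was 21611 bases for PLCB4, 17406 for PLCB1 and 4957 for PLCB3. Ranks and shares on this scale depend on the length used, and the transcripts present in these cells were not measured. On this per-length scale PLCB3 led in KYSE70 with 1218 ± 48.7 (SD, n = 3), followed by PLCG1 with 428 ± 29.8. PLCB4 had 37.8 ± 2.76, PLCB1 32.8 ± 1.41 and PLCG2 28.9 ± 4.06 (SD, n = 3). The libraries of PLCB1 and PLCG2 overlapped, whereas those of PLCB4 lay above both. PLCB2 with 9.37 ± 2.75 and RASGRP1 with 8.29 ± 1.7 also overlapped, and the other RASGRP genes were under 1 on this scale. In NRF2null-KYSE70 the order of the first 2 was kept, and RASGRP3 came next with 276 ± 23.3, ahead of PLCG2 with 45.1 ± 0.246 (SD, n = 3). RASGRP1 and PLCB2 again overlapped, at 11.9 ± 2.04 and 10.3 ± 0.776 (SD, n = 3).

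PLCB3 carried most of the beta class in both lines, with 93.8% ± 0.0861 of its summed per-length level in KYSE70 and 98.9% ± 0.181 in the clone (SD, n = 3 each). PLCB4 and PLCB1 made up 2.91% and 2.53% of it in KYSE70. The summed per-length level of the 6 phospholipase C genes was 1755 ± 85.5 in KYSE70 and 1380.5 ± 93.2 in the clone (SD, n = 3 each). For the 4 RASGRP genes the sum was 8.54 ± 1.74 in KYSE70 and 289 ± 25 in the clone (SD, n = 3 each). RASGRP1 supplied 97.2% of the RASGRP sum in KYSE70, and RASGRP3 supplied 95.7% in NRF2null-KYSE70. The leading RASGRP gene therefore differed between the lines while the leading phospholipases C did not, as the stacked bars of per-length levels show.

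**Figure D2:**
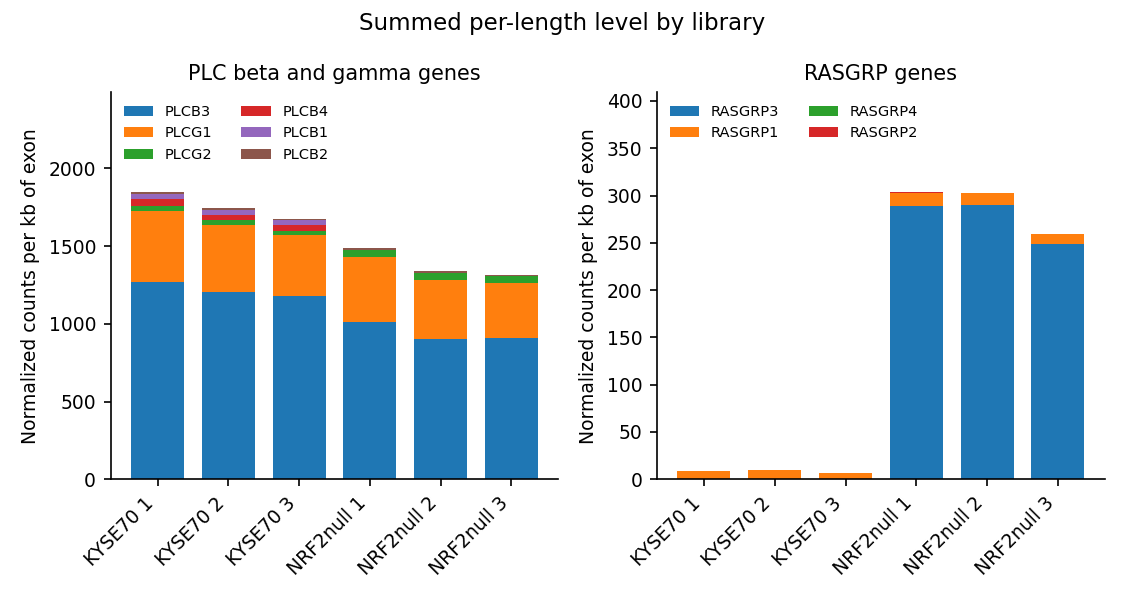
Stacked bars of normalized counts per kilobase of exon (y) in each of the 6 libraries (x, with NRF2null standing for NRF2null-KYSE70), for the 6 phospholipase C genes (left) and the 4 RASGRP genes (right). PLCB3 and PLCG1 make up most of every bar on the left, whereas the bars on the right are mostly RASGRP1 in KYSE70 and mostly RASGRP3 in NRF2null-KYSE70.

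Position was examined next, since PLCB1 and PLCB4 are neighbours on 20p. The protein-coding genes within 2 Mb of the pair numbered 13, of which 8 were tested. Of these 8, 1 was higher and 3 were lower past the threshold, where 7.23% and 7.43% of all tested genes were. Among the untested, 4 had no read at all. TMX4, a thioredoxin-like membrane protein of the endoplasmic reticulum, lies 57.4 kb before PLCB1 on the other strand. TMX4 had 2069, 2244 and 2058 normalized counts in the parent and 2, 7 and 4 reads in NRF2null-KYSE70 (log2 fold change -8.70, SE 0.293, limma adjusted p = 1.2e-10). TMX4, PLCB1 and PLCB4 thus followed each other on the chromosome with almost no reads in the clone. The genes that flank this run, HAO1 on one side and LAMP5 on the other, had no read in either line.

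Farther out, the neighbours of PLCB1 and PLCB4 kept much of their RNA. ANKEF1, 482 kb beyond PLCB4, stood at 58.9% of the parent (log2 fold change -0.76, SE 0.0531, limma adjusted p = 8.82e-08), and MKKS at 62.5% (log2 fold change -0.68, SE 0.0582, limma adjusted p = 6.21e-07). SLX4IP and FERMT1, an adaptor that activates integrins, passed the threshold with log2 fold changes of -1.23 (SE 0.0802, limma adjusted p = 5.02e-08) and -1.13 (SE 0.0457, limma adjusted p = 6.37e-10). The median log2 fold change of the 40 nearest expressed protein-coding genes was -0.64 around PLCB1 and -0.58 around PLCB4. After each gene's own local median was subtracted (-0.53 for SLX4IP and -0.74 for FERMT1), SLX4IP was at -0.69 and FERMT1 at -0.39, both under the fold threshold, while PLCB1 was at -6.09 and PLCB4 at -8.00. BMP2, a secreted bone morphogenetic protein, went the other way, from 12.9 ± 15.2 in the parent to 186 ± 14.6 normalized counts in the clone (SD, n = 3 each, log2 fold change 4.38, SE 0.62, limma adjusted p = 5.44e-05). Its log2 fold change was 5.28 without KYSE70 library 1 and 3.62 without KYSE70 library 3. The number of copies of this region was not measured.

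Around RASGRP3, 11 protein-coding genes lay within 2 Mb and 9 of them were tested. LTBP1, which binds latent TGF-beta in the matrix and ends 36.8 kb before RASGRP3, was the 1 that passed the threshold. It rose from 5472 ± 418 in the parent to 17497 ± 2355 normalized counts in the clone (SD, n = 3 each, log2 fold change 1.67, SE 0.083, limma adjusted p = 4.14e-09). The others had log2 fold changes from -0.15 in TTC27 to 0.38 in YIPF4, and the local median was 0.09. Elsewhere the neighbours of the members differed by varying amounts. The local median was 0.46 around RASGRP1, whose own log2 fold change was 0.53, and 0.49 around PLCB2, against 0.18 for the gene itself. It was -0.30 around PLCG1, -0.11 around PLCB3 and 0.08 around PLCG2.

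**Figure D3:**
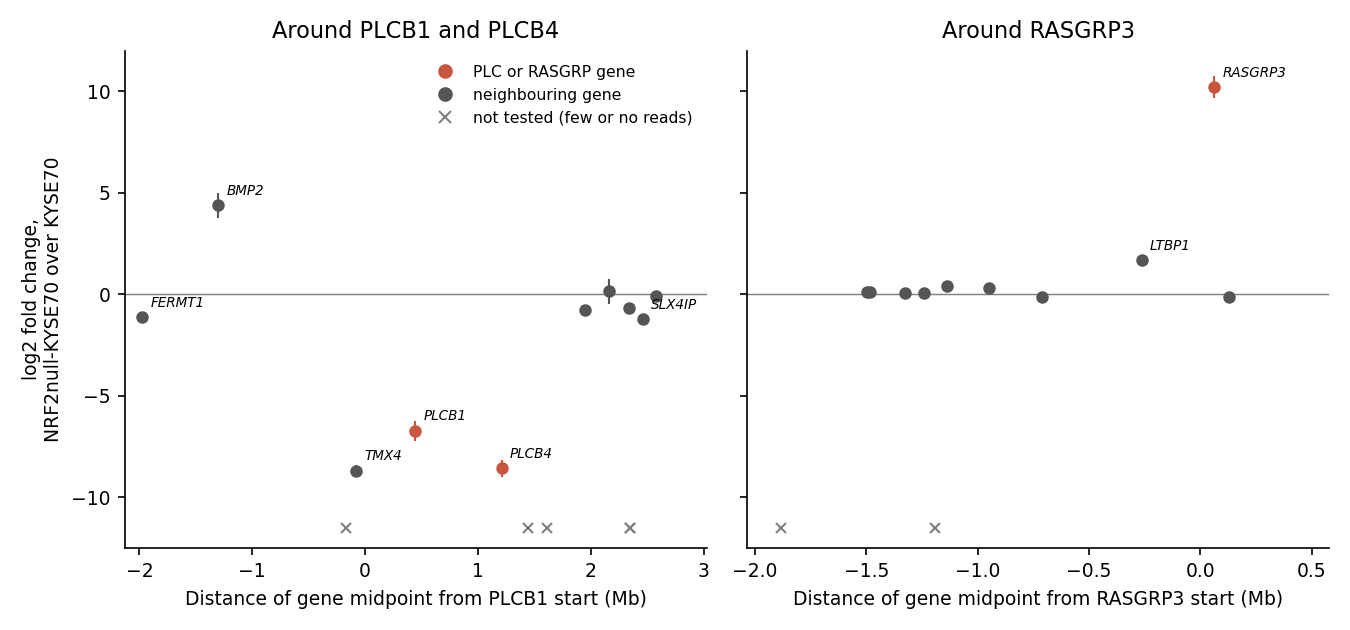
Log2 fold change of NRF2null-KYSE70 over KYSE70 (y, with SE bars) against the distance of each protein-coding gene's midpoint from the start of PLCB1 (left) or RASGRP3 (right) in Mb (x). Labels mark genes that differ by 1 or more on the log2 scale, and crosses at the bottom mark genes that were not tested. TMX4, PLCB1 and PLCB4 form a low run on the left, and RASGRP3 stands alone at the top on the right, with LTBP1 the next highest.

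The genes most like PLCB4 and RASGRP3 in pattern were found by the Euclidean distance between log2(normalized count + 1) profiles over the 6 libraries, each centred on its mean, among the 11997 tested genes with a mean of at least 100. The nearest to PLCB4 was TMX4, the neighbour described above (distance 0.67). It was followed by GBE1, the glycogen branching enzyme on chromosome 3 (distance 1.05), and FSTL5, a follistatin-like gene on chromosome 4 (distance 1.52). GBE1 had 1566 ± 77.9 normalized counts in KYSE70 (SD, n = 3) and 20 reads in all in NRF2null-KYSE70. FSTL5 had 1185 ± 45.9 (SD, n = 3) and 8 reads. Without NRF2null-KYSE70 library 1, the log2 fold change of GBE1 went from -7.83 to -7.24 and that of FSTL5 from -8.85 to -8.17, while without library 2 that of FSTL5 was -9.66.

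Nearest to RASGRP3 were HHIP, an inhibitor of Hedgehog ligands (distance 2.28), DTX3L, a ubiquitin ligase (distance 2.67), and MYH2, a muscle myosin heavy chain (distance 3.47). Each had 3 reads or fewer in every KYSE70 library. In NRF2null-KYSE70, HHIP was thus at least 297-fold higher, DTX3L at least 176-fold higher and MYH2 at least 148-fold higher. DTX3L overlaps PARP9 on the other strand, so their reads could be shared. Since the libraries fall into 2 lines, this distance mostly follows the size of the difference between them.

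The rest of the pathway was described with 12 lists of genes, with 150 tested genes in all. The lists were written from general knowledge with earlier results of these data known, so their counts are given as a description only. Of these 150, 24 were higher and 9 were lower past the threshold, where 7.23% of all tested genes were higher and 7.43% lower. Their median log2 fold change was 0.15. The lists were uneven, as the plot of fold changes by list shows, and 10 of the 24 higher genes were in the list of genes induced by ERK.

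**Figure D4:**
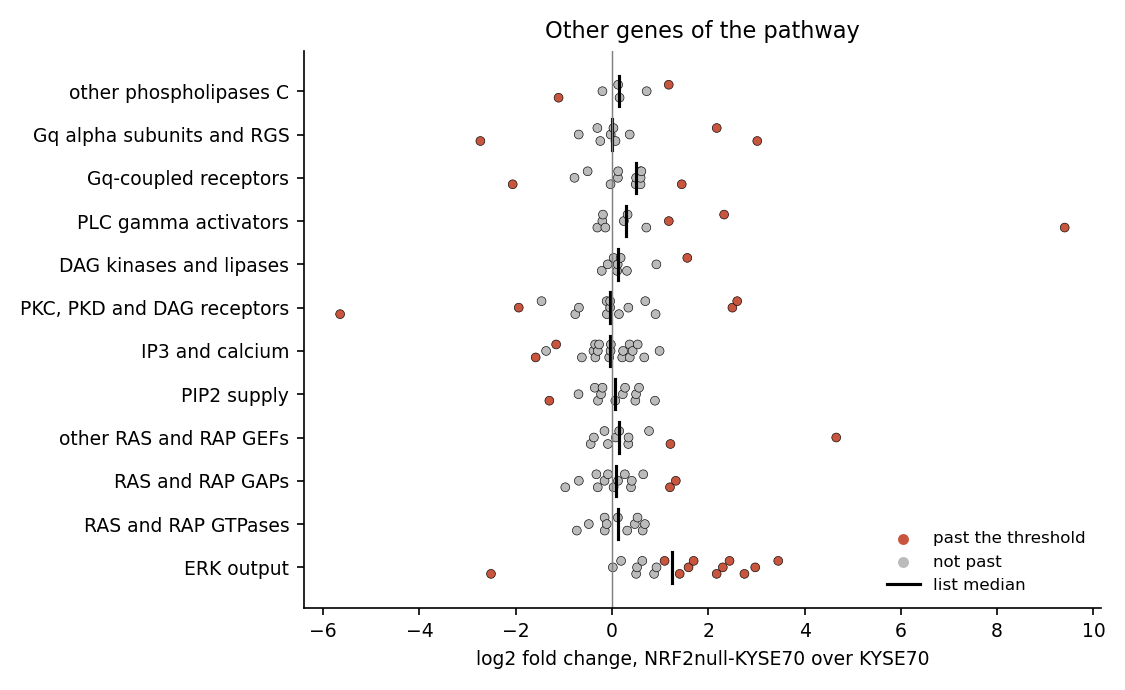
Log2 fold change of NRF2null-KYSE70 over KYSE70 (x) for the tested genes of the 12 pathway lists (y). Points are genes, coloured where they passed the threshold, and the black bar is the list's median. The ERK output list has a median of 1.25, and the next highest median is 0.49, that of the Gq-coupled receptors.

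Genes induced by ERK signalling lie at the far end of the chain, and many encode brakes on it. Of 18 such genes, all tested, 10 were higher and 1 was lower past the threshold, and the median log2 fold change was 1.25. At a limma adjusted p under 0.05 alone, 16 were higher and 1 lower, where 29.3% and 28.3% of all tested genes were. Because the list was written with earlier results of these data known, these counts describe it and are no test. DUSP6, a phosphatase that switches ERK off, had 310.4, 239 and 297 normalized counts in KYSE70 and 3304, 3094 and 2868 in NRF2null-KYSE70 (log2 fold change 3.45, SE 0.102, limma adjusted p = 3.96e-11). SPRY4 and SPRY2 encode Sprouty inhibitors of receptor tyrosine kinase signalling. SPRY4 rose from 266 ± 17.7 in the parent to 2095 ± 106 normalized counts in the clone (SD, n = 3 each, log2 fold change 2.98, SE 0.0868, limma adjusted p = 3.59e-11). SPRY2 rose from 497 ± 35.3 in the parent to 3348 ± 59 normalized counts in the clone (SD, n = 3 each, log2 fold change 2.75, SE 0.0717, limma adjusted p = 1.31e-11). For each of these 3 genes every NRF2null-KYSE70 library was above every KYSE70 library.

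The other higher genes of the ERK list, named after their values were seen, spanned phosphatases, transcription factors and a receptor. DUSP5, a nuclear ERK phosphatase, had a log2 fold change of 2.44 and DUSP4 one of 1.41. FOSL1, an AP-1 subunit, and ETV5, an ETS factor, had log2 fold changes of 2.30 and 2.17. EPHA2, an ephrin receptor, IER3, an early response gene, and PHLDA1 had 1.70, 1.59 and 1.09. The limma adjusted p-values of these 7 ran from 2.28e-12 for ETV5 to 0.000177 for DUSP4. EPHA4, another ephrin receptor, fell from 2182 ± 142 in the parent to 383 ± 44.2 normalized counts in the clone (SD, n = 3 each, log2 fold change -2.51, SE 0.095, limma adjusted p = 3.48e-10). SPRY1 did not pass the test, with 138, 177 and 180.3 normalized counts in KYSE70 and 183, 177 and 142 in NRF2null-KYSE70 (log2 fold change 0.02, limma adjusted p = 0.94). The rises were therefore common in the list without being shared by every Sprouty gene, as the plot of ERK output genes by library shows. The part of RASGRP3 in these values was not tested, since both were read from the same 6 libraries.

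**Figure D5:**
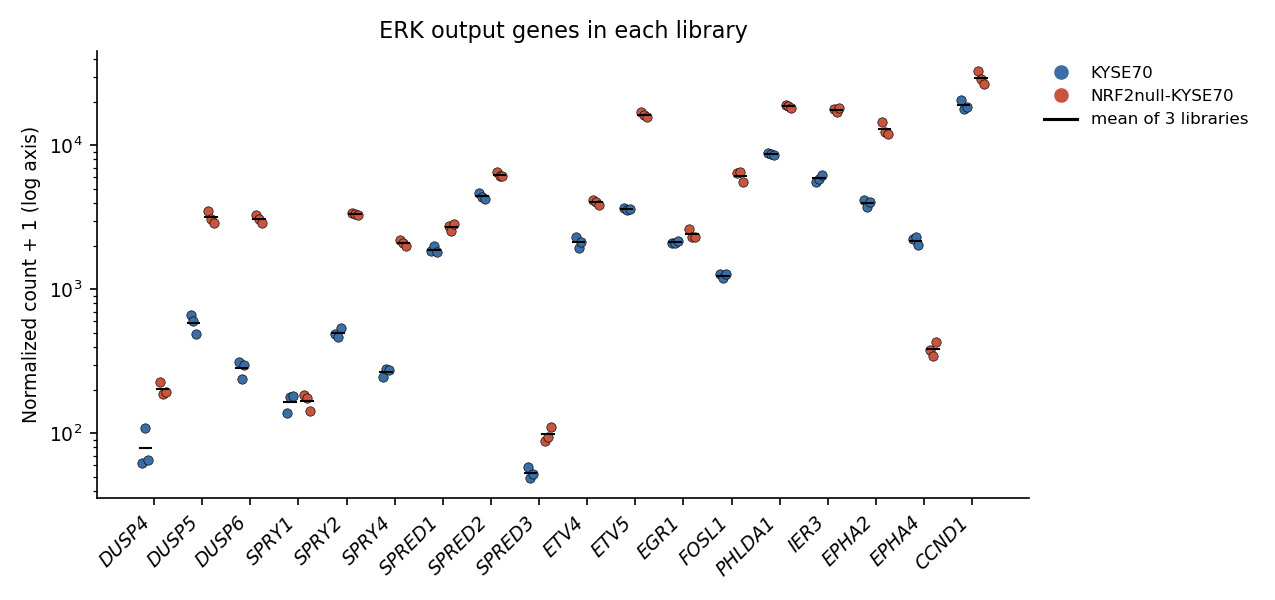
Normalized count plus 1 on a log axis (y) for the 18 ERK output genes (x) in the 3 KYSE70 and 3 NRF2null-KYSE70 libraries. Points are libraries and bars are means of 3. DUSP6 goes from a mean of 282 to one of 3088 normalized counts, EPHA4 falls, and SPRY1 overlaps between the lines.

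Upstream of the beta enzymes, 10 of 12 genes for Gq alpha subunits and their regulators were tested, and 2 were higher and 1 lower past the threshold, all at low levels. GNA15, a Gq-class subunit of blood and epithelial cells, rose from 4.25 ± 3.11 in the parent to 22.6 ± 12.9 normalized counts in the clone (SD, n = 3 each, limma adjusted p = 0.0205). Its limma adjusted p was 0.0653 without KYSE70 library 3 and 0.0631 without NRF2null-KYSE70 library 1. Without NRF2null-KYSE70 library 2 its mean was under 10 and it was not tested, so the call rested on single libraries. The log2 fold change of GNA15, 2.18 with all libraries, was 2.77 without NRF2null-KYSE70 library 3. RGS4, which speeds the shut-off of Gq, rose from 4.52 ± 3.15 in the parent to 39.4 ± 18.8 normalized counts in the clone (SD, n = 3 each, limma adjusted p = 0.00119). The log2 fold change of RGS4 went from 3.02 to 2.37 without KYSE70 library 1. RGS16, a brake of the same kind, fell from 59.9 ± 3.52 in the parent to 9.73 ± 7.52 normalized counts in the clone (SD, n = 3 each, limma adjusted p = 0.00033). The subunit genes GNAQ and GNA11 had log2 fold changes of 0.37 and -0.30 (limma adjusted p = 0.000435 and 0.00131), under the fold threshold.

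Of 36 receptors that couple to Gq, 13 were tested, and 1 was higher and 1 lower past the threshold. F2R, the thrombin receptor, rose from 250.4 ± 6.05 in the parent to 689 ± 97 normalized counts in the clone (SD, n = 3 each, log2 fold change 1.45, SE 0.118, limma adjusted p = 3.81e-07). ADRA1A, an adrenergic receptor, fell from 619 ± 80.1 in the parent to 147 ± 18.7 normalized counts in the clone (SD, n = 3 each, log2 fold change -2.06, SE 0.141, limma adjusted p = 7.65e-08). CHRM3, a muscarinic receptor, had 1608 ± 37.2 and 2273 ± 264 normalized counts (SD, n = 3 per line), and its difference was under the fold threshold (limma adjusted p = 0.000146).

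Around the gamma enzymes, 10 of 17 genes for kinases, adaptors and the ubiquitin ligases CBL and CBLB were tested, and 3 were higher past the threshold. At an adjusted p alone, 5 were higher and 2 lower, where 29.3% and 28.3% of all tested genes were. CBL and CBLB were among the 5 (log2 fold changes 0.71 and 0.25). TXK, a TEC-family kinase of T cells, had 0, 1 and 2 reads in the parent and 1179, 1328 and 1172 normalized counts in the clone, so it was at least 430.1-fold higher. TEC, the founding kinase of that family, rose from 92.4 ± 7.97 in the parent to 471 ± 66.2 normalized counts in the clone (SD, n = 3 each, log2 fold change 2.33, SE 0.155, limma adjusted p = 5.83e-08). TXK and TEC lie 1533 bases apart on chromosome 4. FYN, a SRC-family kinase, rose from 67.9 ± 6.42 in the parent to 155 ± 15.3 normalized counts in the clone (SD, n = 3 each, log2 fold change 1.18, SE 0.192, limma adjusted p = 0.000174). LCP2, an adaptor of T cells, had no read in any library.

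Among the other phospholipases C, 6 of 11 genes were tested, and 1 was higher and 1 lower past the threshold. PLCXD2, which has a phospholipase X domain, rose from 450.3 ± 35 in the parent to 1019 ± 15.2 normalized counts in the clone (SD, n = 3 each, log2 fold change 1.18, SE 0.088, limma adjusted p = 1.67e-07). It overlaps PHLDB2 on the same strand, whose mean went from 6700 in the parent to 12927 normalized counts in the clone. Whether the 2 genes share reads was not tested. PLCH2, an eta enzyme, fell from 1902 ± 131 in the parent to 879.8 ± 27.4 normalized counts in the clone (SD, n = 3 each, log2 fold change -1.11, SE 0.0722, limma adjusted p = 4.78e-08). The delta enzyme PLCD3 rose from 4063 ± 257 in the parent to 6694 ± 467 normalized counts in the clone (SD, n = 3 each) at an adjusted p alone (log2 fold change 0.72, SE 0.0628, limma adjusted p = 7.36e-07). Of 13 enzymes that make phosphatidylinositol bisphosphate or its precursors, 1 was lower past the threshold. At an adjusted p alone, 5 were higher and 5 lower, where 29.3% and 28.3% of all tested genes were. The gene past the threshold was CDS2, a CDP-diacylglycerol synthase, which fell from 3497 ± 181 in the parent to 1419 ± 84.4 normalized counts in the clone (SD, n = 3 each, log2 fold change -1.30, SE 0.0654, limma adjusted p = 4.66e-09). CDS2 is also on 20p, and its log2 fold change after its own local median of -0.83 was subtracted was -0.48.

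Diacylglycerol itself is removed by kinases and lipases. Of 13 genes listed for them and for the step after, 9 were tested and 1 passed the threshold. This was MGLL, the monoacylglycerol lipase, which acts after the diacylglycerol lipases. No tested kinase or lipase of diacylglycerol itself passed. MGLL rose from 71 ± 14.8 in the parent to 209.9 ± 20.6 normalized counts in the clone (SD, n = 3 each, log2 fold change 1.56, SE 0.198, limma adjusted p = 2.1e-05), and it overlaps SEC61A1 on the other strand. DGKZ, a diacylglycerol kinase, had 4677 ± 196 and 4397 ± 169 normalized counts (SD, n = 3 per line, limma adjusted p = 0.172). Of 18 protein kinases C and D and other diacylglycerol receptors, 15 were tested, and 2 were higher and 2 lower past the threshold. One of the higher genes, UNC13D, which primes secretory granules, rose from 41.5 ± 12.6 in the parent to 251 ± 34.2 normalized counts in the clone (SD, n = 3 each, limma adjusted p = 1.37e-06).

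The lower genes of the diacylglycerol receptor list were CHN1 and PRKD1. CHN1, a chimaerin that turns RAC off, fell from 294 ± 41.1 in the parent to 76.8 ± 16.4 normalized counts in the clone (SD, n = 3 each, log2 fold change -1.94, SE 0.195, limma adjusted p = 2.76e-06). PRKD1, a protein kinase D, had 71.1, 85.3 and 39 normalized counts in KYSE70 and at most 1 read in each NRF2null-KYSE70 library, and was at least 20.8-fold lower. PRKCD, a calcium-independent protein kinase C, fell, and PRKCI, an atypical one, rose, at an adjusted p alone (log2 fold changes -0.76 and 0.91, limma adjusted p = 1.71e-07 and 1.4e-08). The list thus held genes that moved far in either direction, with a median log2 fold change of -0.04.

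On the inositol trisphosphate and calcium side, 20 of 23 genes were tested, and 2 were lower past the threshold. At an adjusted p alone, 8 were higher and 8 lower, where 29.3% and 28.3% of all tested genes were. RCAN1, a feedback inhibitor of calcineurin that calcium signals induce, fell from 3376 ± 100.4 in the parent to 1126 ± 70 normalized counts in the clone (SD, n = 3 each, log2 fold change -1.59, SE 0.0641, limma adjusted p = 6.37e-10). PPP3CA, a catalytic subunit of calcineurin, fell from 5608 ± 229 in the parent to 2511 ± 139 normalized counts in the clone (SD, n = 3 each, log2 fold change -1.16, SE 0.0573, limma adjusted p = 3.96e-09). The receptor gene ITPR2 rose from 1267 ± 177 in the parent to 2523 ± 451 normalized counts in the clone (SD, n = 3 each), just under the fold threshold (log2 fold change 0.99, SE 0.12, limma adjusted p = 1.46e-05).

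Among the genes that act on RAS and RAP beside the RASGRP proteins, 11 of 13 other exchange factors were tested, and 2 were higher past the threshold. RAPGEF2, an exchange factor for RAP, rose from 1259 ± 28.2 in the parent to 2937 ± 366 normalized counts in the clone (SD, n = 3 each, log2 fold change 1.21, SE 0.0806, limma adjusted p = 5.72e-08). RASGRF1, a calcium-activated RAS exchange factor, rose from 7.56 ± 6.76 in the parent to 174 ± 28.4 normalized counts in the clone (SD, n = 3 each, log2 fold change 4.66, SE 0.498, limma adjusted p = 4.68e-06), with a log2 fold change of 5.27 without KYSE70 library 1. Of 16 GTPase-activating proteins, 14 were tested and 2 were higher. RASA2 rose from 1426 ± 109 in the parent to 3287 ± 235 normalized counts in the clone (SD, n = 3 each, log2 fold change 1.20, SE 0.0735, limma adjusted p = 2.63e-08). RASAL1 rose from 27.2 ± 2.99 in the parent to 73.8 ± 33.1 normalized counts in the clone (SD, n = 3 each, limma adjusted p = 0.0043), and its log2 fold change went from 1.33 to 0.99, under the fold threshold, without NRF2null-KYSE70 library 3. The 11 RAS and RAP GTPase genes all differed by less than 1 on the log2 scale. At an adjusted p alone, 6 were higher and 4 lower, where 29.3% and 28.3% of all tested genes were. RAP1B, the gene with the widest difference of the 11, fell from 9468 ± 389.8 in the parent to 5705 ± 229.9 normalized counts in the clone (SD, n = 3 each, log2 fold change -0.73, SE 0.0509, limma adjusted p = 8.85e-08). RAP1A rose from 3053 ± 184 in the parent to 4237 ± 124 normalized counts in the clone (SD, n = 3 each, log2 fold change 0.47, SE 0.0575, limma adjusted p = 1.43e-05).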

How the data were processed

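RNA of 3 libraries of KYSE70 and 3 of NRF2null-KYSE70 was analysed. By the submitters' notes, reads were aligned to hg38 with STAR (version 2.6.90c) and counted per gene with featureCounts (version 1.5.1). Use of strand was not given in the sources used here. The table deposited by the authors holds a normalized count signal, read counts that the authors divided by a DESeq2 size factor for each library. Whole reads could be recovered, since all values divided by the worth of 1 read were whole within 0.1. The columns name only the line, so libraries are numbered by their order within a line.

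Differences were tested with limma (version 3.58.1, eBayes with trend, R 4.3.3) on log2(normalized count + 1) over the 15994 genes with a mean of at least 10. P-values were two-sided and adjusted by the Benjamini-Hochberg method. A gene passed at an adjusted p below 0.05 with a log2 fold change of 1 or more in size. Differences are the clone over the parent on this log scale, which understates changes of low genes. A floor of 3 reads per library set the bounds, which are not confidence limits. The 95% counting intervals cover counting error only. Positions and exon lengths came from GENCODE v44 (hg38), in which 58472 identifiers were found, and start windows from RefSeq (GRCh38.p14). The fit was tested on simulated data.

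The members, lists and tests were chosen with earlier results of these data known. Named genes were the members, up to 3 genes per list with the widest fold change among those that passed and had a mean of 100 or more, neighbours past the threshold, the 3 genes nearest in profile to PLCB4 and to RASGRP3, and list genes where a count of 5 or fewer is given. Others were chosen after their values were seen, and a few genes are not reported here. The alternatives tried were other pseudocounts (0.1, 5), filters (none, 50), TMM, total and quantile scaling, limma without the trend or with robust eBayes, edgeR (version 4.0.16) and DESeq2 (version 1.42.0) on recovered reads, subtraction of the median of the 40 nearest genes, and each library left out.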

Additional observations from a re-analysis of the deposited data

How the results depend on the processing

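The 3 members past the threshold stayed past it under all 18 alternatives run, and RASGRP3, PLCB1 and PLCB4 kept their directions. The sizes depended on the pseudocount, since few reads remained in one line: the log2 fold change of PLCB4 was -10.01 with a pseudocount of 0.1 and -7.02 with 5, and that of RASGRP3 ranged from 8.71 to 11.69. The count of all genes past the threshold was 2344 and fell to 1511 with a filter at a mean of 50, where fewer genes were tested, and rose to 2858 with no filter, where more were. The recovered reads gave 2341 genes in DESeq2 and 2350 in edgeR. Of the neighbours of PLCB1, PLCB4 and RASGRP3, 5 passed the threshold, and 3 did after the local median was subtracted, which took CDS2 and RAPGEF2 (0.93) under the fold threshold as well. Quantile scaling put PHLDA1 at 0.97, and limma without the trend gave GNA15 an adjusted p of 0.0537. Subtracting the local median put PLCG1 at 0.14 and PLCB2 at -0.31, signs opposite to those of the report, and the cause was not tested. Pathway genes past the threshold numbered 22 to 28 higher and 7 to 11 lower over the alternatives, and ERK output genes 9 to 10 higher. No paired analysis was possible because columns are named by line only, with no replicate number.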
